A study of Mus musculus with 4 samples.

Results

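Killer lymphocytes carry their cytotoxic proteins in secretory granules, and the genes described here encode the core of that equipment together with the signals that killer cells release. The 10 genes are Gzma, Gzmb, Gzmk, Prf1, Nkg7, Ctsw, Fasl, Ifng, Ccl5 and Xcl1. They were chosen by symbol from GENCODE M21 and are 10 of the 54146 genes in the count table, and all 10 had enough counts for a test. Perforin opens pores in the membrane of a target cell, granzymes enter through them and cleave proteins that drive cell death, and Fas ligand kills through a receptor on the target. Interferon-gamma and the chemokines Ccl5 and Xcl1 act on neighbouring immune cells, among them macrophages and dendritic cells. These products are best known from NK cells and CD8+ T cells, whereas Ccl5 is also made by macrophages.

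The genes were measured in tumor-associated macrophages (TAMs) from female C57BL/6 mice of 8 to 16 weeks bearing subcutaneous tumors of MCA205, a mouse fibrosarcoma line. Control mice were labelled vehicle, and propranolol mice drank water with 0.5 g/L propranolol, a blocker of beta-adrenergic receptors, from the day of tumor inoculation, so that treatment and tumor growth ran together. CD45+ cells were enriched with magnetic beads, and live CD11b+F4/80+ cells were then sorted for sequencing of poly-adenylated RNA. Each group had 2 libraries, with 13798249 and 23018142 counted fragments in control and 39818103 and 16424081 in propranolol replicates 1 and 2. The study describes the libraries of a group as biological replicates, and the sources used here do not give the number of mice behind each, so p-values measure only the spread between these libraries. Levels are given as CPM, counts scaled to the size of each library after TMM normalization, on which scale 1 count was worth between 0.0275 CPM in propranolol replicate 1 and 0.0674 CPM in control replicate 1.

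The sorted cells expressed the genes of the sort gate and of macrophages throughout. Adgre1, which encodes F4/80, had 975.3 and 1008 CPM in control TAMs and 1151 and 1100 CPM after propranolol. The 12 macrophage markers summed to between 22389 and 29398 CPM, with Lyz2 the most abundant. Markers of lymphocytes were present at lower levels. In control TAMs, 20 T cell markers summed to 487 and 551 CPM and 16 NK cell markers to 159.5 and 159.2 CPM, and the 10 granule and effector genes summed to 309 and 330.4 CPM. After propranolol the 10 genes summed to 172 and 93.6 CPM. In RNA of a sorted population, fewer cells of a type and less RNA per cell cannot be told apart.

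Changed genes are those with an adjusted p under 0.05 in the edgeR quasi-likelihood test (Benjamini-Hochberg adjustment over all 14688 tested genes) and a change of more than 1.5-fold. By this rule 9 of the 10 genes fell after propranolol, against 15.6% of all tested genes, and none rose, against 12.2%. The exception was Ccl5. The 10 genes were chosen with earlier results of these data known, which limits this comparison with all tested genes. Both propranolol libraries lay below both control libraries for the same 9 genes, which was so for 36.9% of all tested genes. The median log2 fold change was -1.87 over the 10 genes and -0.02 over all tested genes. In 135 tested genes the log2 fold change was at or below that of Xcl1, the lowest of the 10.

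**Figure D1:**
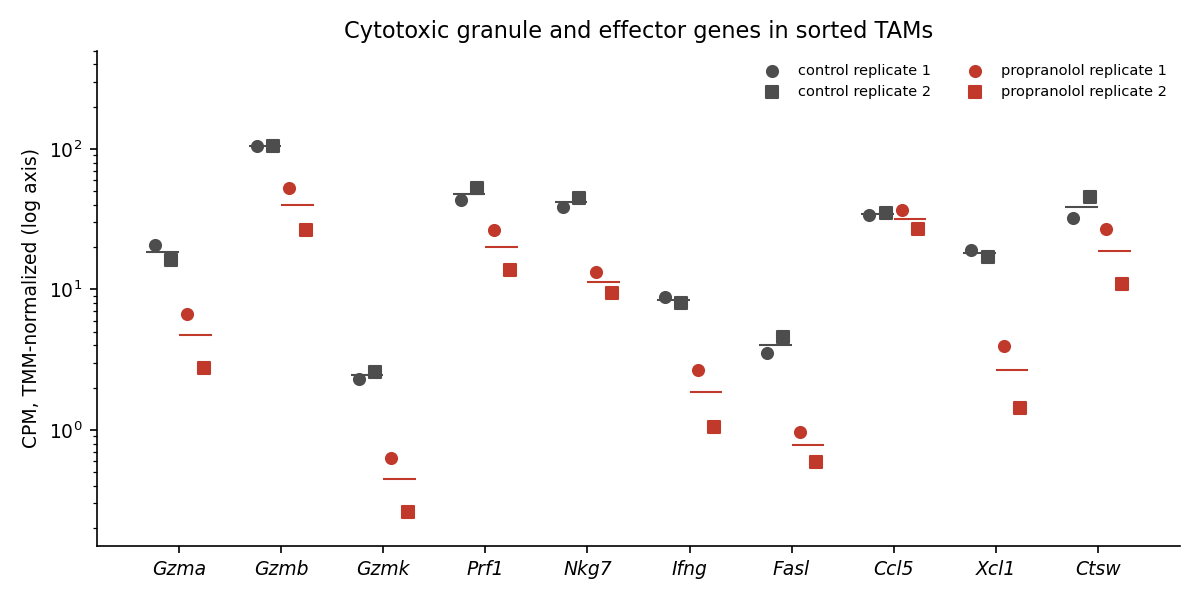
Level of each of the 10 genes in each library, in TMM-normalized CPM on a log axis. Grey points are the 2 control libraries, red points the 2 propranolol libraries, and short lines the group means. The red points lie below the grey points for 9 genes, overlap them for Ccl5, and propranolol replicate 2 (red square) is the lower of the pair for all 10.

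The upstream sequences of 3 granzyme genes are shown because granzymes are the defining cargo of the granule. They cover the 150 bases before the RefSeq start on GRCm38.p6, all on the minus strand, at chr14:56262335-56262484 for Gzmb, chr13:113100982-113101131 for Gzma and chr13:113180966-113181115 for Gzmk, read 5′ to 3′ in the direction of the gene. Capitals mark matches, on either strand, to the letters GTGTGA of a T-box motif, TGTGGT of a Runx motif and TGANTCA of an AP-1 motif, which do not overlap here.
Gzmb: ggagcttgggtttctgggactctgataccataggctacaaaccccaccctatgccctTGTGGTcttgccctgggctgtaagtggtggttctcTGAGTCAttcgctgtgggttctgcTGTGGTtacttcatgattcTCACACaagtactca
Gzma: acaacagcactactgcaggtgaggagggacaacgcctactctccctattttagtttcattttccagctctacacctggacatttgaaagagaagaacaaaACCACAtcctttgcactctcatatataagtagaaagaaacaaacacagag
Gzmk: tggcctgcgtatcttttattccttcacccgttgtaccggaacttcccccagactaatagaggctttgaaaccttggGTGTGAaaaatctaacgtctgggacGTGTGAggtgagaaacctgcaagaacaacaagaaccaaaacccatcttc

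In Gzmb the capitals are Runx motifs that begin 93 and 34 bases before the start, an AP-1 motif at 58 bases and a T-box motif on the opposite strand at 15 bases. The GENCODE start of Gzmb lies 74 bases further downstream. Gzma holds a Runx motif on the opposite strand at 50 bases, and Gzmk holds T-box motifs at 74 and 49 bases. The GENCODE gene of Gzmk begins 44943 bases further upstream than the RefSeq start. Of the 10 genes, 8 matched the RefSeq promoter table, and the 250 bases before the start held the T-box letters in 4 of them (Gzmb, Gzmk, Nkg7 and Xcl1) and the Runx letters in 5 (Gzma, Gzmb, Prf1, Nkg7 and Xcl1). Among all 32851 promoters of the table, 12.3% held the T-box letters and 14.0% the Runx letters. The AP-1 letters were in Gzmb and in 6.75% of all promoters. The cAMP response element TGACGTCA, at which CREB proteins bind downstream of beta-adrenergic receptors, was in 0 of the 8 and in 1.55% of all promoters. With so low a share, 8 promoters cannot show whether the set lacks it, and only the full element was searched. A match is a run of letters and was not tested for binding.

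The granzymes are serine proteases of the granule. Gzmb (ENSMUSG00000015437.5, chromosome 14, 56258838 to 56262260), which cleaves after aspartate and activates caspases, was measured at 106 and 104 CPM in control TAMs and 52.9 and 26.7 CPM after propranolol. It was 2.60-fold lower after propranolol (log2 fold change -1.38, standard error [SE] 0.24, adjusted p = 0.00143, edgeR). The control libraries were close to each other, while the propranolol libraries differed by 1.99-fold. Gzma (ENSMUSG00000023132.8, chromosome 13, 113093825 to 113100981), a trypsin-like granzyme, had 20.6 and 16.2 CPM in control TAMs and 6.66 and 2.75 CPM after propranolol. The log2 fold change of Gzma was -1.89 (SE 0.33, adjusted p = 0.00137, edgeR), and the groups did not overlap. Gzmk (ENSMUSG00000042385.14, chromosome 13, 113171608 to 113225908), which lies near Gzma and shares its trypsin-like specificity, had the fewest counts of the 10 genes. It had 34 and 65 counts in control TAMs and 23 and 4 counts after propranolol, or 2.29, 2.59, 0.633 and 0.262 CPM, with a log2 fold change of -2.33 (SE 0.54, adjusted p = 0.00664, edgeR). With 4 counts in propranolol replicate 2, Gzmk had the widest confidence interval of the 10 genes, from -3.53 to -1.13.

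Prf1, Nkg7 and Ctsw encode the other granule proteins of the set. Prf1 (ENSMUSG00000037202.6, chromosome 10, 61297833 to 61304680), the pore-forming perforin, had 43.6 and 52.4 CPM in control TAMs and 26.7 and 13.8 CPM after propranolol, which was 2.33-fold lower (log2 fold change -1.22, SE 0.24, adjusted p = 0.00306, edgeR). Nkg7 (ENSMUSG00000004612.9, chromosome 7, 43437073 to 43438249) encodes a protein of the granule membrane that takes part in degranulation. Nkg7 had 38.6 and 44.7 CPM in control TAMs and 13.4 and 9.37 CPM after propranolol (log2 fold change -1.85, SE 0.18, adjusted p = 0.000113, edgeR). Its propranolol replicates differed least among the 9 fallen genes, by 1.43-fold. Ctsw (ENSMUSG00000024910.4, chromosome 19, 5465043 to 5468507) encodes a papain-like cysteine protease of NK cells and cytotoxic T cells. It had 32.5 and 45.3 CPM in control TAMs and 26.8 and 10.9 CPM after propranolol (log2 fold change -1.01, SE 0.32, adjusted p = 0.0272, edgeR). The groups lay closest for Ctsw among the fallen genes. Without propranolol replicate 2 its log2 fold change was -0.52, under the 1.5-fold threshold. In DESeq2 its call was lost (adjusted p = 0.217), though the log2 fold change there was -1.02.

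Fasl and Ifng encode a membrane-bound death ligand and the main cytokine by which killer lymphocytes act on macrophages. Fasl (ENSMUSG00000000817.10, chromosome 1, 161780689 to 161788495) had 3.51 and 4.58 CPM in control TAMs and 0.963 and 0.589 CPM after propranolol, which was 5.01-fold lower (log2 fold change -2.32, SE 0.43, adjusted p = 0.00205, edgeR). Ifng (ENSMUSG00000055170.4, chromosome 10, 118441046 to 118445892) had 8.83 and 7.97 CPM in control TAMs and 2.67 and 1.05 CPM after propranolol, which was 4.25-fold lower (log2 fold change -2.09, SE 0.38, adjusted p = 0.00191, edgeR). Neither gene overlapped between groups. Of the exon bases of Ifng, 25.9% also belong to Gm49751 on the same strand, which had 23 and 56 counts in control TAMs and 16 and 4 after propranolol, and the featureCounts options given in the methods (paired fragments, exon features) name no treatment of such an overlap.

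The chemokines of the set went apart. Xcl1 (ENSMUSG00000026573.7, chromosome 1, 164931644 to 164935527), which attracts dendritic cells that carry the receptor Xcr1, had 19.0 and 17.1 CPM in control TAMs and 3.93 and 1.44 CPM after propranolol. It was 6.22-fold lower after propranolol, the lowest log2 fold change of the 10 genes at -2.64 (SE 0.34, adjusted p = 0.000341, edgeR). Its propranolol libraries also differed most from each other, by 2.73-fold, with 143 and 22 counts. The gene Gm20743 on the opposite strand covers 18.7% of the exon bases of Xcl1, and without a stated strand option reads of the pair cannot be told apart there. Ccl5 (ENSMUSG00000035042.2, chromosome 11, 83525778 to 83530518), which attracts T cells and monocytes, had 34.1 and 35.2 CPM in control TAMs and 37.0 and 26.9 CPM after propranolol. One propranolol library lay above both control libraries and the other below, so the groups overlapped. The log2 fold change of Ccl5 was -0.11 (95% confidence interval -0.46 to 0.24, adjusted p = 0.614, edgeR), which does not reach the 1.5-fold threshold at either end. With the GC trend removed the interval was -0.65 to 0.05, which passes that threshold at its lower end. The log2 fold change of Ccl5 was 0.12 without propranolol replicate 2. Without the GC correction the confidence interval of Ccl5 did not overlap that of any of the other 9 genes except Ctsw. With it, the interval of Ccl5 also overlapped that of Gzmb.

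**Figure D2:**
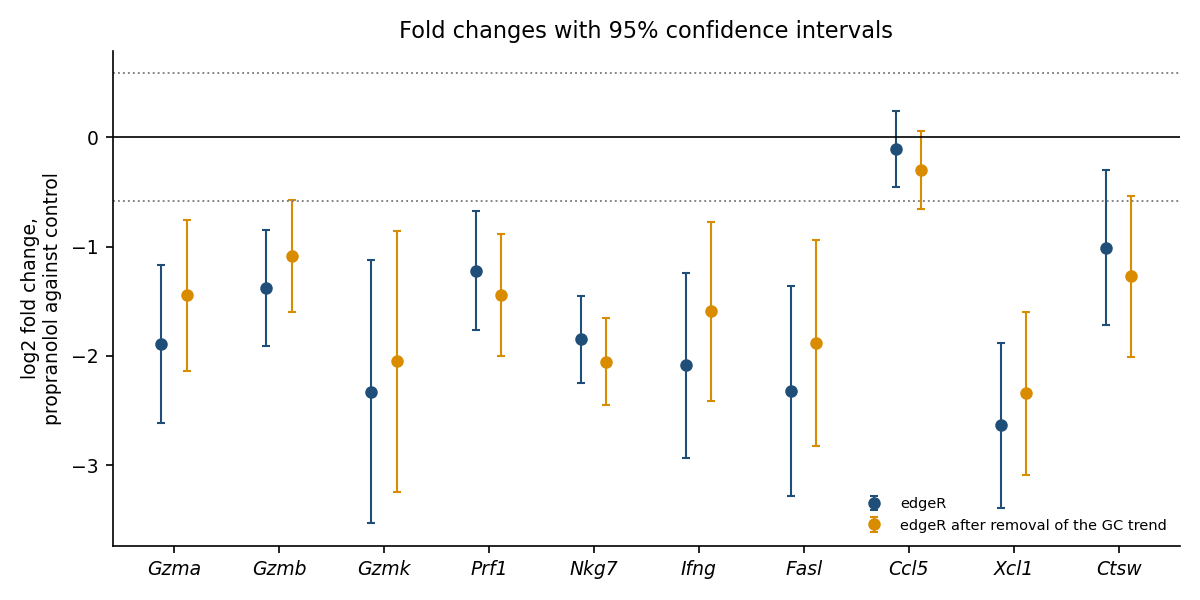
Log2 fold change of each of the 10 genes, propranolol against control, with 95% confidence intervals from the edgeR test before (blue) and after (orange) removal of the trend with GC content. Dotted lines mark a 1.5-fold change, and Ccl5 is the only gene whose intervals include 0 in both fits.

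All 10 genes were lower in propranolol replicate 2 than in propranolol replicate 1, by 1.38-fold for Ccl5 to 2.73-fold for Xcl1, and the size of the falls differed with the library used. Without propranolol replicate 1 the log2 fold changes of the 9 genes lay between -3.63 (Xcl1) and -1.80 (Prf1), and the 9 calls held. Without propranolol replicate 2 they lay between -2.16 (Xcl1) and -0.52 (Ctsw), and 8 calls held. The GC content of the 10 genes spans 43.5% (Ifng) to 54.6% (Ctsw). When each library's trend with GC content was removed before the test, the share of tested genes called lower was 4.99% and the share called higher 7.64%, and the same 9 genes were called lower, with log2 fold changes from -2.34 (Xcl1) to -1.09 (Gzmb). Prf1, Nkg7, Ccl5 and Ctsw, with a GC content of 52.8% or more, had lower values after the correction, and the other 6 genes, with 46.2% or less, had higher values.

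Levels of different genes were compared as TPM, which also divides by exon length. In control TAMs Gzmb was the most abundant at 243 ± 2.703 TPM (SD, n = 2 libraries), followed by Nkg7 at 152 ± 18.6, Ccl5 at 120 ± 5.18 and Xcl1 at 114 ± 6.44. Ctsw, Prf1 and Gzma followed at 68.6 ± 17.3, 61.8 ± 9.25 and 60.7 ± 9.05 TPM, then Ifng at 21.5 ± 1.12, Fasl at 6.95 ± 1.45 and Gzmk at 5.84 ± 0.623 TPM. Neighbours in this order whose libraries overlapped were Ccl5 and Xcl1, Ctsw and Prf1, Prf1 and Gzma, and Fasl and Gzmk. After propranolol the highest means were Ccl5 at 93.4 ± 18.5 TPM and Gzmb at 77.5 ± 34.3 TPM, whose libraries overlapped, and Xcl1 stood at 14.3 ± 9.08 TPM, sixth in the order. Fasl and Gzmk remained the lowest, at 1.12 ± 0.352 and 0.899 ± 0.506 TPM. Of the summed CPM of the 10 genes, Ccl5 made up 11.1% and 10.7% in control TAMs and 21.6% and 28.7% after propranolol, whereas Gzmb made up between 28.5% and 34.2% in each library.

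Genes of the same pathway were taken from 9 lists, also chosen with earlier results of these data known. The lists name 102 genes in all, of which 91 were tested. Of these, 25 (27.5%) fell and 4 (4.4%) rose, beside 15.6% and 12.2% of all tested genes, and with the GC correction 18 (19.8%) were called lower and 3 (3.3%) higher, beside 4.99% and 7.64%. Among the other granzymes, 1 of 5 tested genes fell (20%), near the 15.6% of all tested genes. Gzmc, a granzyme of activated killer cells, had 78.2 and 82.5 CPM in control TAMs and 45.4 and 27.5 CPM after propranolol (log2 fold change -1.12, adjusted p = 0.0013, edgeR). Gzmd, Gzme, Gzmf and Gzmg had log2 fold changes of -0.09, -0.44, -0.80 and -0.15 and did not pass the test, Gzmm had too few counts, and Gzmn had 0 counts in all 4 libraries. Between 4.14% (Gzmc) and 21.9% (Gzmd) of the 50-base windows of the transcripts of Gzmc to Gzmg and Gzmn recur in another granzyme, so their counts are uncertain. None of the windows of Gzma, Gzmb or Gzmk recur in another gene (0 of 947, 1387 and 1255).

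Granule assembly and release genes did not move as one group. Of 8 tested genes of the granule matrix, proenzyme processing and serpins, 3 fell. They were Serpinb6b (log2 fold change -1.95), Serpinb9 (-1.02), an inhibitor of granzyme B that protects the cells that make it, and Lamp2 (-0.69), a lysosomal membrane protein. Ctsc, the protease that activates progranzymes and the most abundant of that list, had 2824 and 2482 CPM in control TAMs and 2298 and 1961 CPM after propranolol, under the 1.5-fold threshold. With the GC correction Serpinb6b was still called lower, Serpinb9 (-0.39) and Lamp2 (0.34) were not called, Ctsc turned from -0.32 to 0.42 without a call, and Serpinb6a was called higher (0.92). In the exocytosis machinery, 2 of 14 tested genes (16 named) fell and 2 rose, 14.3% each way and near the shares over all tested genes. These counts were 1 and 4 without control replicate 1, 2 and 4 without control replicate 2, and 1 and 3 without propranolol replicate 2. Sytl2, an effector of Rab27 proteins that tethers granules to the plasma membrane, fell (log2 fold change -2.05), as did the SNARE gene Snap23 (-0.67), while Stxbp2, a syntaxin-binding protein of granule fusion, rose (0.72), as did Coro1a, which acts on the actin cytoskeleton and was the most abundant (0.85). After the removal of the GC trend Sytl2 was still called lower, Snap23 (0.17), Stxbp2 (0.47) and Coro1a (0.51) were not called, and Stx11 was called higher (0.79). With upper-quartile factors 2 pathway genes of all lists were called higher in place of 4.

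Among the other effector cytokines and death ligands, 2 of 7 tested genes fell (28.6%, beside 15.6% of all tested genes). Tnfsf10, which encodes the death ligand TRAIL, had 26.3 and 23.6 CPM in control TAMs and 10.3 and 7.92 CPM after propranolol (log2 fold change -1.43, adjusted p = 0.000292, edgeR). Lta, or lymphotoxin alpha, had a log2 fold change of -1.47 (adjusted p = 0.0455, edgeR). With the GC trend removed 3 genes of the list were called lower, Tnfsf10 (-0.87), Lta (-1.77) and Ltb (-0.83). Without control replicate 2 or propranolol replicate 2, 1 gene of that list was called lower and 1 higher. Ccl4 was the most abundant gene of the list by CPM over all libraries. It was at 48.4 and 67.3 CPM in control TAMs and 72.2 and 74.3 CPM after propranolol and was not changed. In control TAMs Ccl3 was higher, at 52.4 and 68.0 CPM, and Il21 had 0 counts in every library. Of the 7 receptors for the products of the 10 genes, 1 fell (14.3%), near the 15.6% of all tested genes. With upper-quartile factors 2 were called lower. The receptor that fell was Xcr1, the receptor of Xcl1 on conventional dendritic cells, with 5.80 and 7.06 CPM in control TAMs and 3.30 and 1.77 CPM after propranolol (log2 fold change -1.30, adjusted p = 0.0125, edgeR). The GC correction ended the call of Xcr1 (-0.67, adjusted p = 0.171, edgeR), and 1 other receptor of the list, Ccr1, was called higher (0.66).

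Of 21 tested targets of interferon-gamma, 5 (23.8%) fell and 2 (9.52%) rose, beside 15.6% and 12.2% of all tested genes, with a median log2 fold change of -0.13. The median was -0.03 without control replicate 2 and 0.0002 without propranolol replicate 2, and 1 target was called higher without propranolol replicate 1 and 0 with upper-quartile factors. Iigp1, an interferon-inducible GTPase, had 176 and 167 CPM in control TAMs and 54.7 and 40.2 CPM after propranolol (log2 fold change -1.84, adjusted p = 0.000102, edgeR). Cxcl9, a chemokine that attracts T cells through Cxcr3, had 549.6 and 551 CPM in control TAMs and 282 and 189 CPM after propranolol (log2 fold change -1.22, adjusted p = 0.00034, edgeR). The guanylate-binding proteins Gbp2 and Gbp5 fell too (-0.83 and -0.65). Nos2, the inducible nitric oxide synthase, and Psmb9, a subunit of the immunoproteasome, rose (0.64 and 0.62), and the most abundant target, the MHC class II gene H2-Ab1, had a log2 fold change of 0.30, under the threshold. In the GC-corrected fit Iigp1 (-0.90), Cxcl9 (-0.70) and Gbp5 (-0.59) were called lower, and Gbp2 (-0.58), Nos2 (0.39) and Psmb9 (0.36) were not called, nor was H2-Ab1 (-0.04).

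Regulators of the cytotoxic programme and receptors of the cytokines that drive it included further falls and no rise. Of 15 tested transcription factors 7 fell, among them Tox (log2 fold change -1.83), Zfp683 (-1.66), which encodes Hobit, Ikzf3 (-1.64), which encodes Aiolos, and Ikzf2 (-1.41), which encodes Helios. Zeb2 was the most abundant factor of the list by CPM in control TAMs, at 334 and 349 CPM. After propranolol it had 265 and 293 CPM, below Runx3, and was not changed. The T-box factors Tbx21 and Eomes, named here after their values were seen, had log2 fold changes of -1.35 and -0.96 (adjusted p = 0.00431 and 0.0410, edgeR). Tbx21, which encodes T-bet, had 11.0 and 14.5 CPM in control TAMs and 6.30 and 3.41 CPM after propranolol, and the groups did not overlap. Runx3, also named after its value was seen, was at 227 and 229 CPM in control TAMs and 271 and 317 CPM after propranolol, under the threshold. Of 8 cytokine receptors of killer lymphocytes 4 fell, namely Il18r1 (-2.01), Il12rb2 (-2.01), Il2rb (-1.26) and Il18rap (-0.996). By CPM over all libraries Il21r was the most abundant and did not pass the threshold (0.35), while in control TAMs Il2rb was higher. Once the GC trend was removed, Ikzf2 (-0.55, adjusted p = 0.0524, edgeR) and Il18rap (-0.63, adjusted p = 0.0902, edgeR) were not called, and the other genes named here as fallen were. Zeb2 turned from -0.29 to 0.52 with that correction, without a call. Of 6 tested cytokines that activate killer cells none was changed with all libraries, whereas 2 were called lower without control replicate 1, 1 lower without propranolol replicate 1 and 1 higher without control replicate 2, and limma-voom called 1 lower. In that list the most abundant gene, Ebi3, had a log2 fold change of 0.44 (adjusted p = 0.0252, edgeR).

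**Figure D3:**
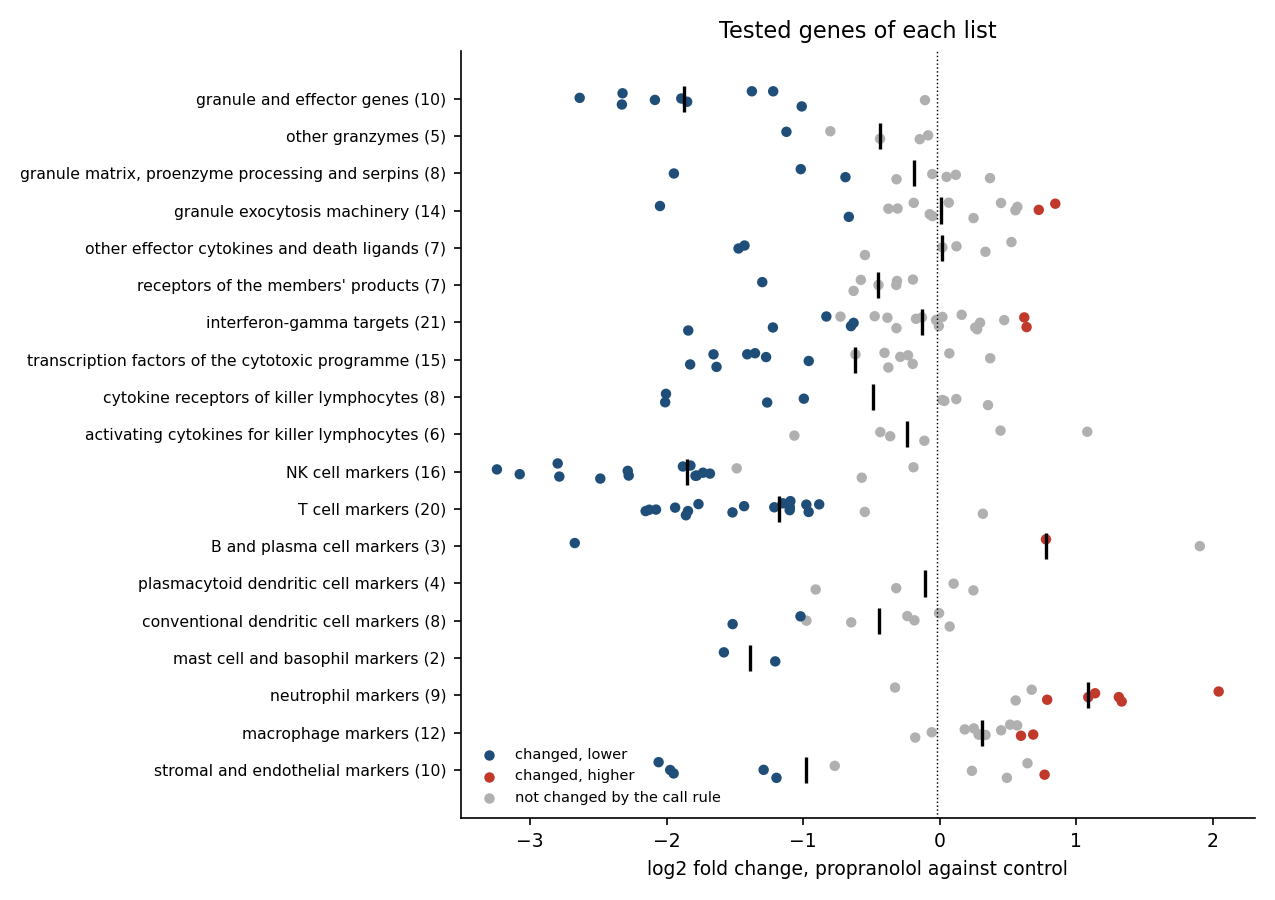
Log2 fold change, propranolol against control, of each tested gene of 19 lists (number tested in parentheses), with the median of each list as a black bar and the median of all tested genes (-0.02) as a dotted line. Blue and red points are genes called lower and higher, and the granule and effector genes have a median of -1.87, beside -1.85 for the NK cell markers and -1.18 for the T cell markers.

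Markers of the cells that usually make these products moved in the same direction. Of 16 NK cell markers 13 fell, with a median log2 fold change of -1.85, and their summed level was 159.5 and 159.2 CPM in control TAMs and 56.7 and 36.6 CPM after propranolol, which was 3.42-fold lower. With the GC trend removed, the sums were 112 and 111 CPM in control TAMs and 76.0 and 52.0 CPM after propranolol, which was 1.74-fold lower. By CPM over all libraries the most abundant was Klrk1, which encodes NKG2D, while after propranolol Sh2d1b1 was higher. Klrd1, Klrc1, Klri2 and Klre1, all receptors of NK cells, had the lowest log2 fold changes, from -3.24 to -2.79. Klrg1 (-0.19), Cd160 (-1.49, adjusted p = 0.0585, edgeR) and Sh2d1b1 (-0.57, adjusted p = 0.0111, edgeR) were not called. Cd160 missed the limit on p and Sh2d1b1 the 1.5-fold threshold, so neither was shown to be unchanged. Many of these genes have a low GC content, 32.7% for Klrk1. After the removal of the GC trend 6 of the 16 were called lower and the median was -1.31. Klrk1 was then at -0.05 (adjusted p = 0.866, edgeR), and Klrd1, Klrc1, Klri2 and Klre1 were called lower with log2 fold changes from -1.99 to -1.72. Of 20 T cell markers 18 fell, with a median log2 fold change of -1.18 and a summed level of 263 and 150.4 CPM after propranolol. Thy1 was the most abundant, and Trbc2, Trdc, Cd3g and Cd28 had the lowest log2 fold changes, from -2.15 to -1.94. Cd8a, a coreceptor of cytotoxic T cells named after its values were seen, had 71.0 and 86.8 CPM in control TAMs and 29.4 and 13.4 CPM after propranolol. The T cell markers that were not called were Cd4 (0.32) and Cd5 (-0.55). After the removal of the GC trend 17 of the 20 were called lower, with a median of -1.21. The defining genes of T cells, 6 genes of the T cell receptor and CD3, all fell and summed to 127 and 147 CPM in control TAMs and 62.4 and 31.0 CPM after propranolol. Propranolol replicate 2 was the lower library for these sums as it was for the 10 genes. The part of these lymphocyte markers in the falls of the 10 genes was not tested.

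The 10 genes were also expressed relative to the summed markers of the same library, as a description without a test. Relative to the T cell markers, the summed level of the 10 genes was 0.635 and 0.6002 in control TAMs and 0.653 and 0.622 after propranolol, and the groups overlapped. The T cell ratios changed little when the GC trend was removed first, at 0.628 and 0.604 in control TAMs and 0.6497 and 0.625 after propranolol. Relative to the NK cell markers, the summed level was 1.94 and 2.08 in control TAMs and 3.03 and 2.56 after propranolol. With the GC trend removed it was 2.73 and 2.94 against 2.26 and 1.79, so the direction of this ratio turned with the correction. The NK sum also leaned on Sh2d1b1, which was not called. Uncorrected, it held 26.8 and 29.4 of 159.5 and 159.2 CPM in control TAMs. After propranolol it held 20.5 and 17.2 of 56.7 and 36.6 CPM.

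Among the single genes, 5 kept the same order of groups against both marker sums, with and without the GC correction. The share of all tested genes that do so was not computed, so this count has no background to be read against. Gzmk, Ifng, Fasl and Xcl1 were lower in both propranolol libraries than in both control libraries. Xcl1 per NK marker was 0.119 and 0.107 in control TAMs and 0.0694 and 0.0394 after propranolol. It was 2.16-fold lower, and 3.47-fold lower with the GC trend removed. Ifng per T marker was 0.0182 and 0.0145 in control TAMs and 0.0102 and 0.00697 after propranolol. That ratio was 1.93-fold lower, and 1.36-fold lower with the GC trend removed. Ccl5 was higher after propranolol, with 0.0701 and 0.0640 per T marker in control TAMs and 0.141 and 0.179 after propranolol, a 2.37-fold difference. Per NK marker the difference of Ccl5 was 3.18-fold, and 1.41-fold with the GC trend removed. Ccl5 itself was not called in CPM, while the summed T and NK cell markers were 2.51-fold and 3.42-fold lower. Any gene with an unchanged level would therefore also be higher per marker. The other 5 genes gave no single answer. Gzmb, Prf1 and Ctsw overlapped between groups relative to the T cell markers and were higher after propranolol relative to the NK cell markers, but with the GC trend removed Gzmb and Prf1 were lower relative to the NK cell markers and Ctsw overlapped relative to both sums. In the same correction Gzmb was higher and Prf1 lower relative to the T cell markers. Gzma and Nkg7 were lower relative to the T cell markers and overlapped relative to the NK cell markers, and with the GC trend removed both were lower relative to the NK cell markers and Gzma overlapped relative to the T cell markers.

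**Figure D4:**
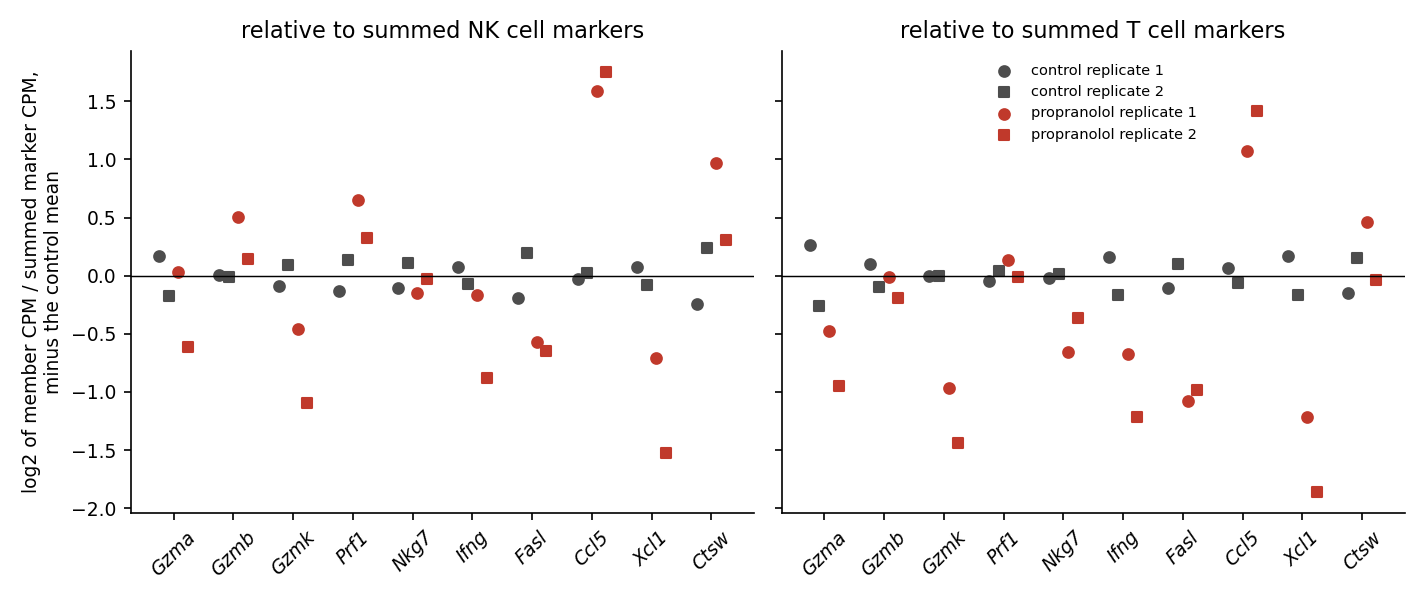
Log2 of the CPM of each gene divided by the summed CPM of the NK cell markers (left) or T cell markers (right) of the same library, minus the mean of the 2 control libraries, without GC correction. Grey points are control and red points propranolol libraries. Ccl5 is above the control points in both panels, and Gzmk, Ifng, Fasl and Xcl1 are below them in both.

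Markers of other cells did not share one direction. The 3 tested of 10 B and plasma cell markers held 1 that rose, the most abundant marker Cd79b (0.78), and 1 that fell (Ms4a1, -2.67). None of 4 tested plasmacytoid dendritic cell markers was changed, with Tcf4 the most abundant, and 1 was called higher without propranolol replicate 1. Of 8 conventional dendritic cell markers Clec9a (-1.52) and Cd209a (-1.02) fell (25%, beside 15.6% of all tested genes). The most abundant, Itgax, was not changed (-0.01). Of 12 mast cell and basophil markers, 2 were tested and both fell, Gata2 (-1.58) and the most abundant Kit (-1.21), while Mcpt8, Ms4a2 and Fcer1a had 0 counts. With control replicate 1, propranolol replicate 1 or propranolol replicate 2 left out, 1 marker of that list was called lower. Of 9 tested neutrophil markers 6 rose, S100a9 (2.04), S100a8 (1.33), Cxcr2 (1.31) and Trem1 (1.14) the most, and the list summed to 213 and 229.6 CPM in control TAMs and 429 and 445.5 CPM after propranolol, with Csf3r the most abundant. Of 12 macrophage markers 2 rose (16.7%, beside 12.2% of all tested genes), Cd14 (0.68) and Csf1r (0.59). Of 10 stromal and endothelial markers 5 fell and 1 rose (Cdh5, 0.77), and the list summed to 2813 and 1082 CPM in control TAMs and 680.2 and 735 CPM after propranolol, with the most abundant, Col3a1, at -1.97. Without control replicate 1, which held the higher control sum, 3 of the stromal and endothelial markers were called lower and their median log2 fold change was -0.23 in place of -0.98. After the removal of the GC trend Cd79b (0.52), Ms4a1 (-1.90), Cd209a (-0.59), Cd14 (0.50), Csf1r (0.32) and Cdh5 (0.61) were not called, nor was the stromal gene Dcn (-0.87), while Mrc1 (0.85), Mmp8 (1.18) and Pdgfrb (-1.06) gained a call. With a library left out, 0 of the B and plasma cell markers were called lower for any of the 4 libraries, while 3 were called higher without propranolol replicate 1 and 2 without control replicate 2. One conventional dendritic cell marker was called lower without control replicate 1 or propranolol replicate 2. The count of macrophage markers called higher was 4 without propranolol replicate 2. The part of these cells in the results was not tested.

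The genes whose levels followed the mean of the 10 most closely were sought over the 4 libraries by the root mean square distance between centred log2 CPM values (prior count 2) among 13297 genes outside the set. Among the nearest 8, at distances of 0.0463 to 0.0766, were Stap1, Ikzf3, Tcrg-C2, Carnmt1, Hmgb1-ps5, Klrb1b and She. Klrb1b encodes an NK cell receptor and Tcrg-C2 a constant region of the gamma chain of the T cell receptor. Klrb1b, for example, had 39.6 and 48.5 CPM in control TAMs and 17.5 and 8.91 CPM after propranolol. Within the set Gzmb lay nearest to the mean profile at 0.154, while Xcl1 at 0.570 and Ccl5 at 0.842 lay farthest.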

How the data were processed

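RNA of sorted TAMs was sequenced in 2 control and 2 propranolol libraries. The authors deposited raw counts of fragments per gene, made with STAR 2.7.1a (mm10), SAMtools 1.9 and featureCounts 1.6.4 on GENCODE exons. The release and the strand option are not given in the sources used here. Identifiers were matched to GENCODE M21 (54079 of 54146 genes, 67 unmatched), and 0 columns were left out. Counts were filtered with filterByExpr (minimum count 10), TMM-normalized and compared with the quasi-likelihood test of edgeR 4.0.16 in R 4.3.3 with limma 3.58.1, and DESeq2 1.42.0 served as an alternative. Intervals are at 95%. A two-sided exact permutation test of 2 against 2 libraries cannot give a p below 0.333. The GC correction removed a natural spline (5 degrees of freedom) through offsets. The steps were run on simulated counts that gave every gene the same common dispersion (0.0172), which need not match the spread of each gene here. The most abundant gene of a list is the one with the highest CPM over all libraries together. In each pathway list, up to 4 changed genes per direction and the most abundant gene are named. In each marker list the most abundant gene, the genes at 0 counts and up to 4 changed genes are named. Some genes that this rule names are not reported here. Members and lists were chosen with earlier results of these data known. Replicates differed beyond sampling noise (chi-square per degree of freedom 10.6 in control and 13.7 in propranolol libraries). Promoters are those of RefSeq.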

Additional observations from a re-analysis of the deposited data

How the results depend on the processing

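Of the 10 genes, 9 were called lower under every alternative except DESeq2 (8), a log2 fold change above 1.5 (6, without Gzmb, Prf1 and Ctsw) and the omission of propranolol replicate 2 (8). The log2 fold change of Ccl5 ranged from -0.37 to 0.12 with a library left out (0.12, adjusted p = 0.545 in edgeR, without propranolol replicate 2). The cause was not tested. With the GC correction 733 genes were called lower and 1122 higher, in place of 2286 and 1798, and 6 NK cell markers were lower. The median over all genes moved from -0.02 to 0.09. The log2 change of the summed 10 genes relative to the NK cell markers was 0.47, and -0.50 with a GC correction that was added after the data were seen. Relative to the T cell markers it was 0.05 in both. At a log2 fold change above 1.5, 667 genes were lower and 61 higher, with 8 pathway genes and 8 T cell markers lower and 0 pathway genes higher. With no fold threshold 3205 genes and 15 pathway genes were higher. Pathway genes called higher numbered 7 with no filter on low counts, 2 with upper-quartile factors and 4 to 8 with a library left out.

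The replicate numbers did not pair the libraries by any label, and the deviations of equally numbered libraries correlated at 0.169 over 14688 genes. With the replicate number as a block, 2495 genes were lower and 1867 higher, and the 9 calls held. With block and GC correction together, 947 genes were lower, 1181 higher and 7 NK cell markers lower. Where a library was omitted, the spread came from the other group alone. Depth limits Gzmk most, with 4 counts in propranolol replicate 2.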
